A study of Mus musculus with 2 samples.

Results

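The genes of the αβ T cell receptor complex and of its CD4 and CD28 partners were followed in resting and stimulated mouse CD4+ T cells. They are the constant-region genes Trac, Trbc1 and Trbc2, the CD3 chain genes Cd3d, Cd3e, Cd3g and Cd247, and the coreceptor genes Cd4 and Cd28. They were chosen by name, with earlier results of these data known. All 9 were found, on 47 of the 95569 splice junctions that could be given a gene, among 9695 genes named in all. The cells, from male mice of the strain C57BL/6JJcl, were CD4+ T cells enriched magnetically from 4 pooled spleens. The stimulated cells lay for 4 h on plates coated with antibodies to CD3e and to CD28 (2 ug/ml each), and the mock cells were handled alike on plates with no antibody. Each condition is 1 library of RNA from pooled cells, so differences are between these 2 libraries, with no replicate check and no p-value. The libraries also differed in insert size, 199.014 bp in the stimulated one and 211.79 bp in the mock one, and the part of that in the results was not tested.

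The α and β chains of the receptor recognise peptide on major histocompatibility complex molecules and have almost no signalling part of their own. They depend on the CD3 δ, ε and γ chains and on the ζ chain, the product of Cd247, whose cytoplasmic tails carry the tyrosine motifs that the kinase Lck phosphorylates. CD4 binds class II molecules and brings Lck to the complex, and CD28, which binds CD80 and CD86, gives the costimulatory signal. On stimulated T cells the receptor complex is known to be internalised and partly degraded, a protein-level event that RNA counts do not show.

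Each value counts the reads aligned across a splice junction, given as reads or as reads per 1000000 junction reads of the library (rpm). The stimulated library held 1341197 junction reads and the mock library 1147232. A ratio is the stimulated over the mock value, with an exact (Clopper-Pearson) 95% interval that covers counting error only. A gene was called higher or lower when it had at least 20 reads over both libraries, differed by at least 2-fold and had an interval that excluded 1. The labelled cell type fitted its markers as far as these go. All 9 genes had reads in both libraries, though coverage was uneven: Cd28 had 69 stimulated and 97 mock reads, and 4 of the 7 Cd3e introns were found. Cd4 had 285 stimulated and 650 mock reads, while Cd8b1, the one CD8 coreceptor gene that could be named, had 5 and 16. Cd8b1 was called lower (0.267, 0.0766 to 0.764). B cell genes were present at the same summed level in both libraries, 755 and 754 rpm over 7 genes, most of them from Cd74, which antigen-presenting cells of other kinds also express. Named myeloid genes summed to 29.1 and 32.3 rpm (5 of 7 listed genes). Among them Cybb had 19 stimulated and 5 mock reads, the only myeloid gene called (higher), and Lyz2 had 0 and 15. The one named natural killer gene, Klrd1, had 14.9 and 33.1 rpm and was called lower (0.450, 0.248 to 0.793). Of all measured genes 17.1% were called higher and 25.1% lower. The γδ and precursor list had 54 and 49 reads (3 of 5 genes named), nearly all from Trdc. The part of these other cells in the results was not tested, and in pooled bulk RNA a smaller number of cells of a type cannot be told apart from less RNA per cell.

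Since 2 of the genes are near copies, their sequences are shown here. Trbc1 and Trbc2 encode alternative constant regions of the β chain, and a T cell uses either. The stretch below runs from the last 30 bases of exon 1 through exon 2 (18 bases) to the first 30 bases of exon 3, in GENCODE M21 transcripts on GRCm38 chromosome 6, plus strand, with the bases that differ between the genes in capitals.
Trbc1: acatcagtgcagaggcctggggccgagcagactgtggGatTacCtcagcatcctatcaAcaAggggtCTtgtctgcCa
Trbc2: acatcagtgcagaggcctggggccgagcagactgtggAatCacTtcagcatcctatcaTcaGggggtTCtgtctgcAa
The genes differ at 1 of 375 bases in exon 1, at 3 of 18 in exon 2 and at 15 of 107 in exon 3, and the last 115 bases of exon 1 are the same in both. Reads of these genes may therefore have been placed on either copy, and the split between them is uncertain.

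The last exons of Cd247 are the other place where sequence decides what a junction means. A zeta transcript and an eta transcript share exon 7 and then differ, the zeta form ending after 164 codons and the eta form after 206. The last 20 bases of exon 7 are shown in lower case and the first 40 bases of the last coding exon in capitals, from GRCm38 chromosome 1, plus strand.
Cd247 zeta: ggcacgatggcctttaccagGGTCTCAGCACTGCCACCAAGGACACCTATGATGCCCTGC
Cd247 eta: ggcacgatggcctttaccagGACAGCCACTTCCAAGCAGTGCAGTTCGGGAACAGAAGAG

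The genes of the receptor complex had unlike ratios. Reads of Cd247 and Cd4 were lower after stimulation, Cd3e, Cd3g, Cd28 and Trbc2 had ratios between 0.532 and 0.608, Trbc1 and Cd3d stood nearer to no difference, and Trac alone had a ratio above 1 by total junction reads. A scaling by the trimmed mean of M values, which assumes most genes alike, moves every log2 ratio up by 0.24 and puts Cd3d above 1 as well. By the calling rule 2 of the 9 genes were lower, against 25.1% of the 7200 genes with at least 20 reads, and 0 were higher, against 17.1%. With a fold of 1.5 in place of 2, 6 genes were lower (33.6% of all measured genes) and 1, Trac, was higher (23.3%). The interval lay below 1 for 7 genes (38.2% of all measured genes) and above 1 for 1 gene (27%), and the ratio itself was below 1 for 8 (56.9%). Whether an interval excludes 1 depends on read depth. By rpm per junction Cd28, the lowest of the 9, was above 83.5% of measured genes in the stimulated library. The interval counts are therefore not matched to the shares of all measured genes. With the trimmed-mean scaling 6 intervals lay below 1, since that of Trbc1 then included 1 (0.991, 0.887 to 1.11), a count added after the values were seen. The median log2 ratio was −0.79 for the 9 genes and −0.21 for all measured genes. All 9 together had 5968 reads in the stimulated library and 7186 in the mock library, or 0.445% and 0.626% of the junction reads.

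**Figure D1:**
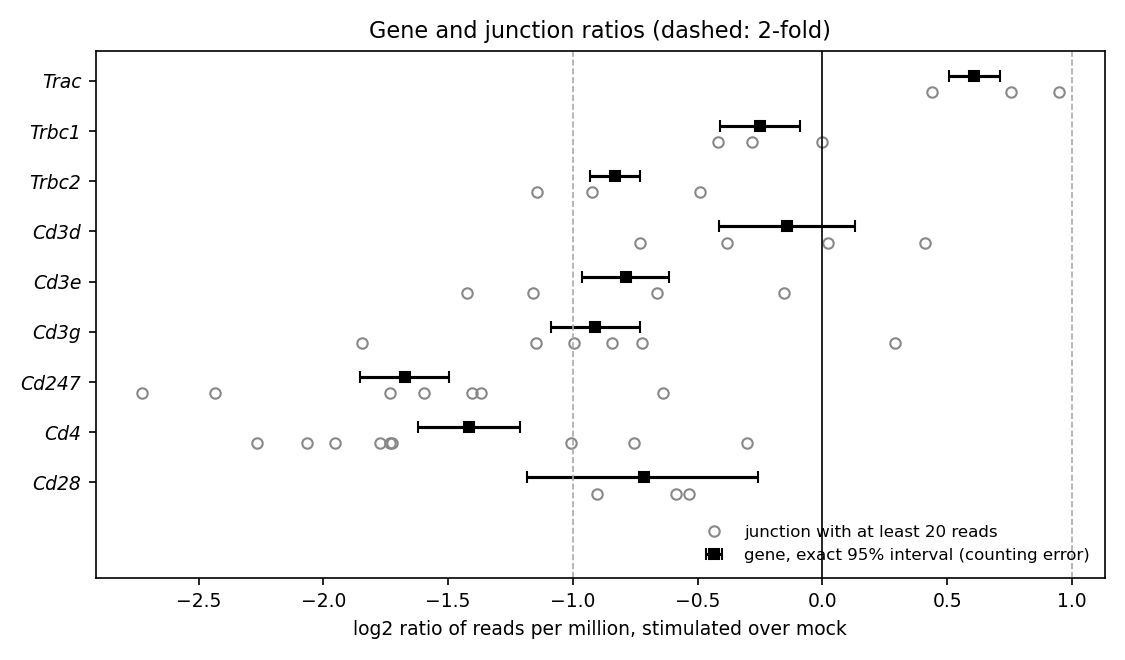
Log2 ratio of rpm, stimulated over mock, for each gene (black squares, exact 95% intervals for counting error) and for each of its junctions with at least 20 reads (open circles); dashed lines mark 2-fold. Cd247 and Cd4 lie below the lower dashed line, and by total junction reads Trac is the only gene right of 0, at 0.61, while 2 other scalings also put Cd3d there.

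Per junction, the constant regions of the receptor chains had the highest mean rpm of the 9 genes in both libraries. Trac, the α chain constant region on mm9 chromosome 14 (introns between 54840457 and 54843360), had 2171 stimulated and 1219 mock reads. Its ratio was 1.52 (1.42 to 1.64), under the 2-fold limit and above 74.4% of measured genes. All of its 3 introns had a higher rpm in the stimulated library, and the ratio differed along the gene. Intron 1 had 284 stimulated and 126 mock reads, a ratio of 1.93 (1.56 to 2.40), and intron 2 had 790 and 400, a ratio of 1.69 (1.496 to 1.91). Intron 3 had 1097 and 693, a ratio of 1.35 (1.23 to 1.49), and its interval did not overlap that of intron 1 or intron 2.

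The β chain genes had ratios below 1. Trbc2, on mm9 chromosome 6 (41497104 to 41498159), had 1346 stimulated and 2047 mock reads, a ratio of 0.562 (0.525 to 0.603). Trbc1, upstream of it (41488592 to 41489643), had 639 and 650 reads, a ratio of 0.841 (0.753 to 0.939). Neither gene was called. Within Trbc2 the ratio was 0.527 at intron 1, 0.452 at intron 2 and 0.712 at intron 3, and within Trbc1 it was 0.822 at intron 1 and 0.748 at intron 2. Intron 3 of Trbc1 had 201 stimulated and 172 mock reads, a log2 ratio of −0.00058 (ratio interval 0.811 to 1.23). In both genes, then, the last intron had the highest ratio, whereas in Trac it had the lowest. In Trbc1, however, the interval of intron 3 overlapped those of intron 1 (0.681 to 0.993) and intron 2 (0.620 to 0.902).

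A junction of 9017 bp joined the end of exon 1 of Trbc1 to the start of exon 2 of Trbc2 (mm9 chromosome 6, 41488592 to 41497608). It had 44 reads in the stimulated library and 232 in the mock library, a 6.16-fold lower rpm in the stimulated one (4.45 to 8.71). At the Trbc2 acceptor it held 13.5% of the stimulated reads (9.98% to 17.7%) and 33.6% of the mock reads (30.1% to 37.3%). Of the 31 splice sites of the 9 genes that more than 1 junction used and that had at least 20 reads in each library, only the donor and the acceptor of this junction differed in use by 20 percentage points with intervals that did not overlap. On its exon 1 side the aligned stretch was at most 36 bases in the stimulated library and 71 in the mock library, inside the 115 bases that the genes share. Its exon 1 side therefore does not tell the genes apart, while its exon 2 side was placed on Trbc2, over at most 18 bases in the stimulated library and 19 in the mock library. The first 7 bases of exon 2 are the same in both genes, so a read with a short overhang need not cover a base that differs.

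Which gene these reads are given to moves the split between the genes but not the β chain as a whole. Counted with Trbc2 they bring its log2 ratio to −0.94, in place of −0.83, and counted with Trbc1 they bring that of Trbc1 to −0.59, in place of −0.25. This way of counting was chosen after the values were seen. Both genes and the junction together had 2029 stimulated and 2929 mock reads, a ratio of 0.593 (0.560 to 0.627). Trbc1 made up 32.4% of the intron 2 reads of both genes in the stimulated library (28.8% to 36.1%) and 22.5% in the mock library (20.02% to 25.0%). At intron 3 its share was 24.7% (21.8% to 27.8%) and 18.9% (16.4% to 21.6%). Both shares were higher in the stimulated library with intervals that did not overlap. At intron 1 the share was 40.5% and 25.1% with the 9017-bp junction given to Trbc2, but 48.5% (44.3% to 52.8%) and 50.3% (47.0% to 53.5%) with it given to Trbc1, so that there the difference rests on that choice.

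Set against each other within a library, the α and β constant-region reads need no scaling between libraries. Trac made up 52.2% of the reads over the 9 introns of Trac, Trbc1 and Trbc2 in the stimulated library (50.7% to 53.8%) and 31.1% in the mock library (29.7% to 32.6%). With the 9017-bp junction added to the β chain reads the shares were 51.7% and 29.4%. The intron counts are matched, 3 per gene, and the difference held at each: 36.0% and 15.5% at intron 1, 54.2% and 26.7% at intron 2, and 57.4% and 43.3% at intron 3. Constant-region introns are counted in any spliced transcript that holds them, rearranged or not, so these reads do not separate complete receptor transcripts from others.

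**Figure D2:**
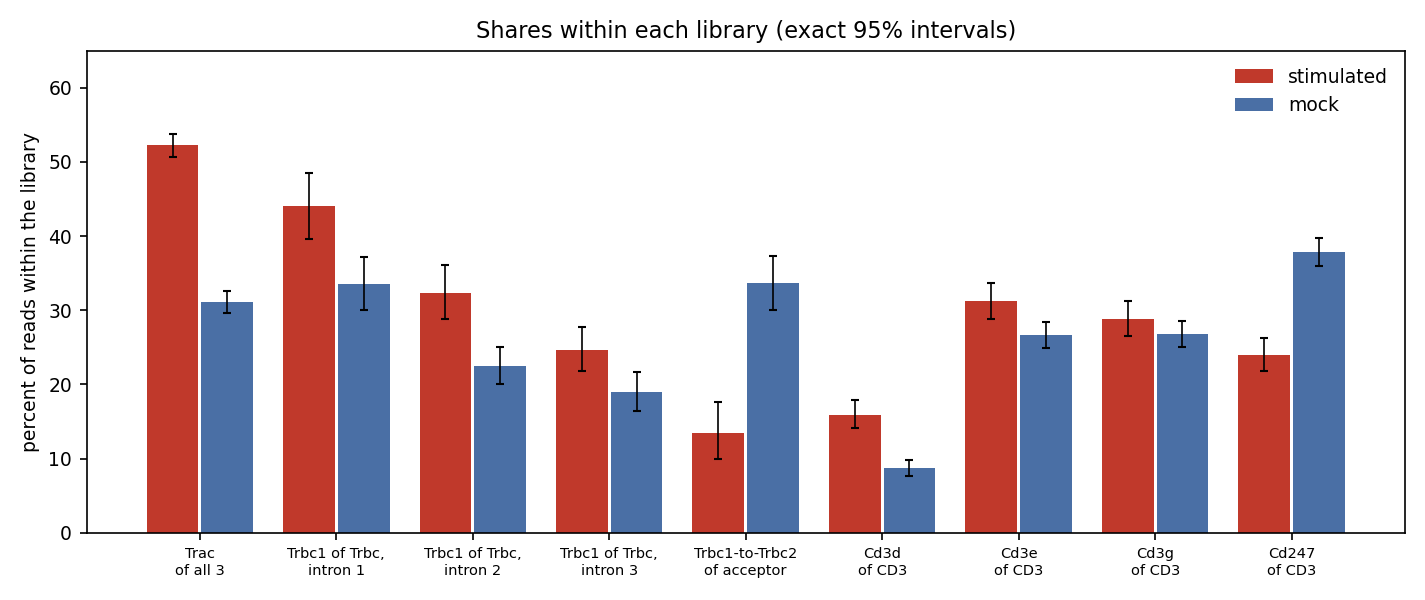
Percent of reads within each library (stimulated left, mock right; bars with exact 95% intervals): Trac among Trac, Trbc1 and Trbc2; Trbc1 among Trbc1 and Trbc2 at each intron; the 9017-bp junction among reads at the Trbc2 intron 1 acceptor; and each CD3 chain among the 4. Trac held 52.2% in the stimulated library and 31.1% in the mock library, and Cd247 held 24.0% and 37.9% of the CD3 chain reads.

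Among the CD3 chains the signalling chain ζ had by far the lowest ratio. Cd247, the ζ chain gene, on mm9 chromosome 1 (167719018 to 167796785), had 350 stimulated and 955 mock reads and was 3.19-fold lower in the stimulated library (2.82 to 3.62), below all but 12.9% of measured genes. All 7 of its junctions with at least 20 reads had ratios under 1, from 0.151 to 0.642. The counts were uneven along the gene: intron 2 had 0 stimulated and 3 mock reads, against 193 and 437 at intron 7. Among the introns of the main transcript with at least 20 reads the lowest ratio was at intron 6, with 64 and 296 reads (0.185, 0.139 to 0.243).

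The forms of Cd247 are told apart at the exon 7 donor. The zeta junction held 193 of 196 stimulated reads there (98.5%, 95.6% to 99.7%) and 437 of 455 mock reads (96.0%, 93.8% to 97.6%). The eta junction held 3 and 17 reads, 1.53% (0.317% to 4.41%) and 3.74% (2.19% to 5.91%). The zeta form thus took nearly all reads at this donor in both libraries, and the shares of the eta form have overlapping intervals. A second pair of forms differs by 3 bases at the start of exon 5, shown in capitals after the last 20 bases of exon 4.
Cd247 exon 5, longer form: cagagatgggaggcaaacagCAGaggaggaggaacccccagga
Cd247 exon 5, shorter form: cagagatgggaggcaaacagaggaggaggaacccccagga
The shorter form had 4 of 23 stimulated reads at that donor (17.4%, 4.95% to 38.8%) and 4 of 59 mock reads (6.78%, 1.88% to 16.5%). These intervals overlap, and the difference was not tested.

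Cd3d, Cd3g and Cd3e lie close together on mm9 chromosome 9, with Cd3d and Cd3g side by side in opposite directions. Cd3g, which encodes the γ chain, had 421 stimulated and 677 mock reads, a ratio of 0.532 (0.470 to 0.602). Cd3e, whose product is the target of the stimulating antibody and pairs with both γ and δ, had 455 and 672 reads, a ratio of 0.579 (0.513 to 0.653). Cd3d, the δ chain gene, had 232 and 219 reads, a ratio of 0.906 (0.750 to 1.09). None of the 3 was called; the intervals of Cd3g and Cd3e lay below 1 and did not overlap that of Cd3d, whose interval included 1. For Cd3d the sign itself depends on the scaling: its log2 ratio was −0.14 by total junction reads and 0.10 with the trimmed-mean scaling.

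In Cd3d and Cd3g the first intron had the highest ratio. Intron 1 of Cd3d had 87 stimulated and 56 mock reads (1.33, 0.939 to 1.89), introns 2 and 3 had ratios of 0.767 and 0.602, and intron 4, with 38 and 32 reads, had 1.02 (0.618 to 1.68). Intron 1 of Cd3g had 40 and 28 reads (1.22, 0.735 to 2.06), and intron 2, with 29 and 89 reads, had 0.279 (0.177 to 0.428). These 2 introns of Cd3g flank an exon of 24 bases, shown in capitals between 20 bases of each neighbour (GRCm38 chromosome 9, minus strand), and their intervals did not overlap, so the ratio of the gene is not that of each of its junctions.
Cd3g exons 1 to 3: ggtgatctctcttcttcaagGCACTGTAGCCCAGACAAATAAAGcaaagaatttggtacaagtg
The junction of 5875 bp that leaves this exon out had 3 stimulated reads and 1 mock read. Among reads at the start of exon 3 that is 9.38% (1.98% to 25.0%) and 1.11% (0.0281% to 6.04%), with intervals that overlap. Introns 3 to 6 of Cd3g were closer to each other, at 0.451 to 0.605.

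For Cd3e the counts cover part of the gene. Of its 7 introns, 4 were found, and introns 2, 3 and 4, which surround exons of 18 and 15 bases, had no junction in either library. Those exons are shown in capitals, exon 3 followed by exon 4, between 20 bases of exon 2 and 20 of exon 5 (GRCm38 chromosome 9, minus strand).
Cd3e exons 2 to 5: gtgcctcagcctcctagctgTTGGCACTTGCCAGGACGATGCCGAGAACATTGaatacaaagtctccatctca
Intron 5 had 41 stimulated and 94 mock reads (0.373, 0.252 to 0.544), intron 6 had 243 and 329 (0.632, 0.533 to 0.748), and intron 7 had 81 and 77 (0.8998, 0.650 to 1.25). Intron 1 had 90 and 172 reads (0.448, 0.343 to 0.581). The last intron thus stood apart from introns 1 and 5, whose intervals lie below its own. At the intron 1 donor a second acceptor, 3 bases further in, took 11.8% of the stimulated reads (12 of 102) and 12.2% of the mock reads (24 of 196), much the same share in both.

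As shares of the 4 CD3 chain genes, Cd3d and Cd3e took more of the reads in the stimulated library and Cd247 less. Cd3d had 15.9% of their reads in the stimulated library (14.1% to 17.9%) and 8.68% in the mock library (7.61% to 9.85%). Cd247 had 24.0% (21.8% to 26.3%) and 37.9% (36.0% to 39.8%). Cd3e had 31.2% (28.8% to 33.7%) and 26.6% (24.9% to 28.4%), and Cd3g had 28.9% and 26.8%, the only pair of the 4 with overlapping intervals. The 4 genes together had 1458 stimulated and 2523 mock reads, a ratio of 0.494 (0.463 to 0.527).

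**Figure D3:**
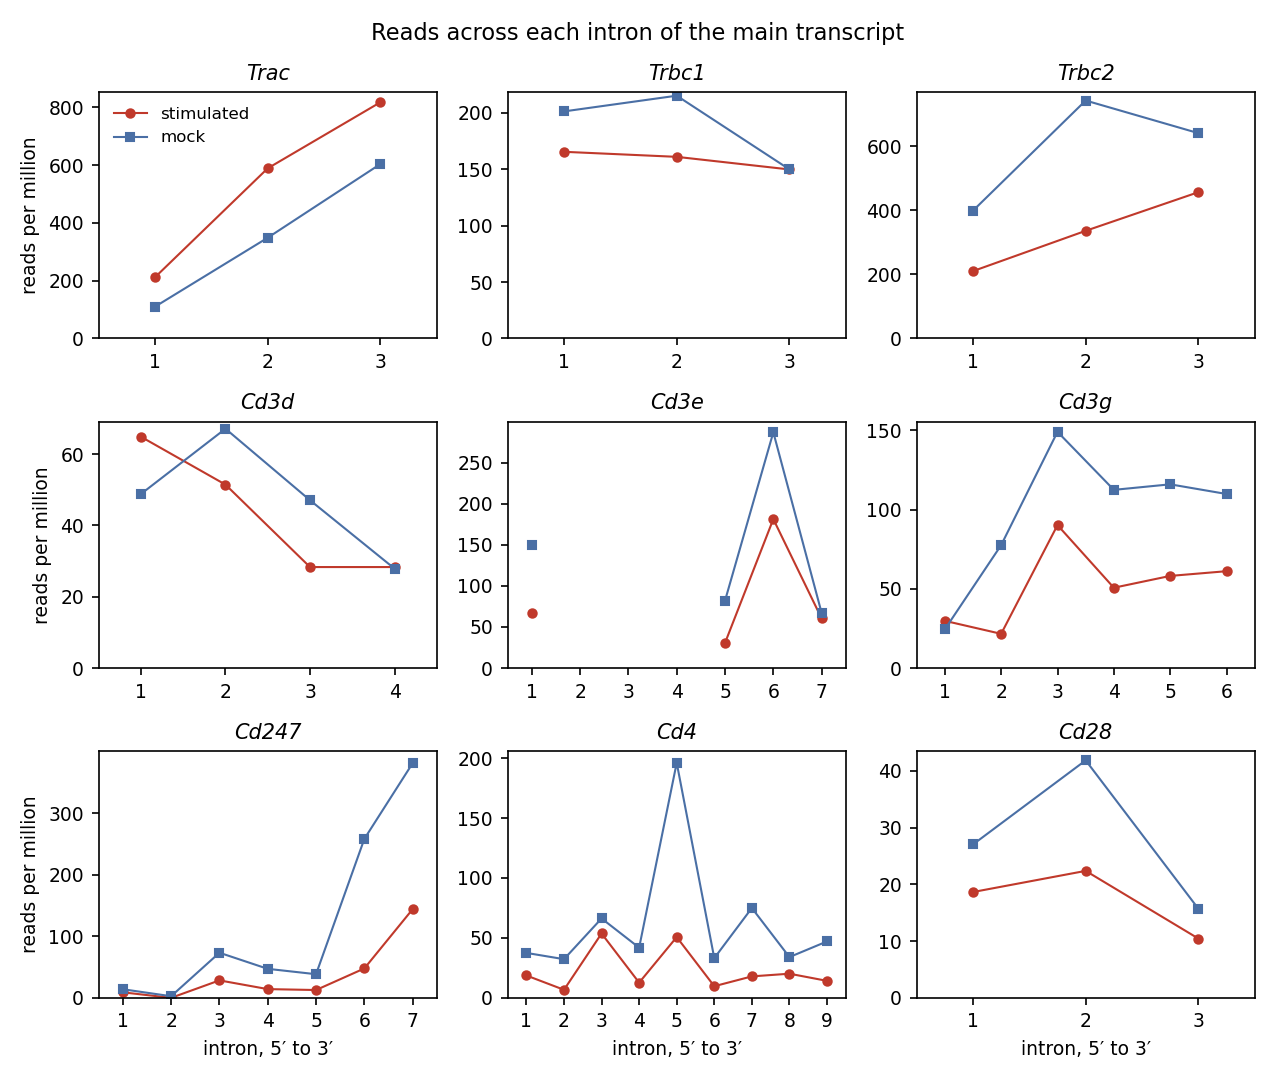
Reads per 1000000 junction reads across each intron of the main transcript, 5′ to 3′, in the stimulated (circles) and mock (squares) libraries; each panel has its own scale from 0, and the 3 Cd3e introns with no reads are left blank. The stimulated points lie above the mock points at all 3 Trac introns and below them at every intron of Cd247, Cd4 and Cd28.

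The coreceptor gene Cd4, on mm9 chromosome 6 (124816294 to 124838097), had 285 stimulated and 650 mock reads and was 2.67-fold lower in the stimulated library (2.32 to 3.08). All 9 of its junctions with at least 20 reads had ratios under 1, and 8 had intervals below 1. They ran from 0.208 at intron 2 (9 and 37 reads) to 0.810 at intron 3 (72 and 76 reads, 0.579 to 1.13). Intron 5 had the most reads, 68 and 225.

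Minor Cd4 junctions had few reads. A nearer acceptor at intron 8, which lengthens exon 9, had 7 of 34 stimulated reads at its donor (20.6%, 8.70% to 37.9%) and 2 of 41 mock reads (4.88%, 0.596% to 16.5%). The junction that skips exon 8 had 4 of 28 stimulated reads (14.3%, 4.03% to 32.7%) and 2 of 89 mock reads (2.25%, 0.273% to 7.88%). Both pairs of intervals overlapped, and the differences were not tested.

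Cd28, the costimulatory receptor gene and target of the second antibody, lies on mm9 chromosome 1 (60803373 to 60826500) and had 69 stimulated and 97 mock reads, the fewest of the 9. Its ratio was 0.608 (0.440 to 0.837). Its 3 introns gave 0.690, 0.535 and 0.665. The spread between its junctions was the lowest of the 9, at 0.295 times the counting variance, against 2.03 over 4914 genes. This spread grows with read depth for the same differences in ratio, so it does not rank how much the junctions of each gene vary. In the other genes this spread ran from 2.21 times in Trbc1 to 16.8 times in Trbc2. With intervals widened by the factor over all genes, the interval of Cd28 became 0.3801 to 0.964 and that of Trbc1 0.718 to 0.985, and the counts of intervals below and above 1 stayed at 7 and 1. That factor, 2.03, is smaller than the spread of every member except Cd28, so the widened intervals may still be too narrow for them.

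Levels were compared between genes as mean rpm per named junction, which is not the mean per intron. Cd3e had 4 named junctions for 7 introns, whereas Cd247 had 9 for 7 and Cd4 had 11 for 9. Introns not found do not lower the mean of Cd3e, while rarely used junctions lower those of Cd247 and Cd4. The place of Cd3e therefore depends on which junctions are counted. In the stimulated library Trac had 540 rpm per junction, followed by Trbc2 (335), Trbc1 (159) and Cd3e (84.8). Cd3g (44.8) and Cd3d (43.2) came next and did not differ beyond counting error, then Cd247 (29.0), Cd4 (19.3) and Cd28 (17.1), the last 2 with overlapping intervals. In the mock library the order began with Trbc2 (595) ahead of Trac (354), Trbc1 (189) and Cd3e (146). Cd247 (92.5) stood next to Cd3g (84.3), with overlapping intervals, then Cd4 (51.5) and Cd3d (47.7), also overlapping, and Cd28 (28.2). Trac and Trbc2 thus exchanged places, and by these means Cd247 stood below Cd3g and Cd3d in the stimulated library. By the most-read junction of each gene that order turns, with Cd247 at 144 rpm, Cd3g at 90.2 and Cd3d at 51.4 in the stimulated library. The place of Trbc1 turns too: there Cd3e, at 181 rpm, was above Trbc1, at 161, and in the mock library Cd247 (381) and Cd3e (287) were above Trbc1 (215). All 9 genes stood high in both libraries: Cd28, the lowest, was above 83.5% of measured genes in the stimulated library and 93.4% in the mock library. Which junctions stand for a gene matters here, because ranks in the middle moved when the median or the most-read junction was used.

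**Figure D4:**
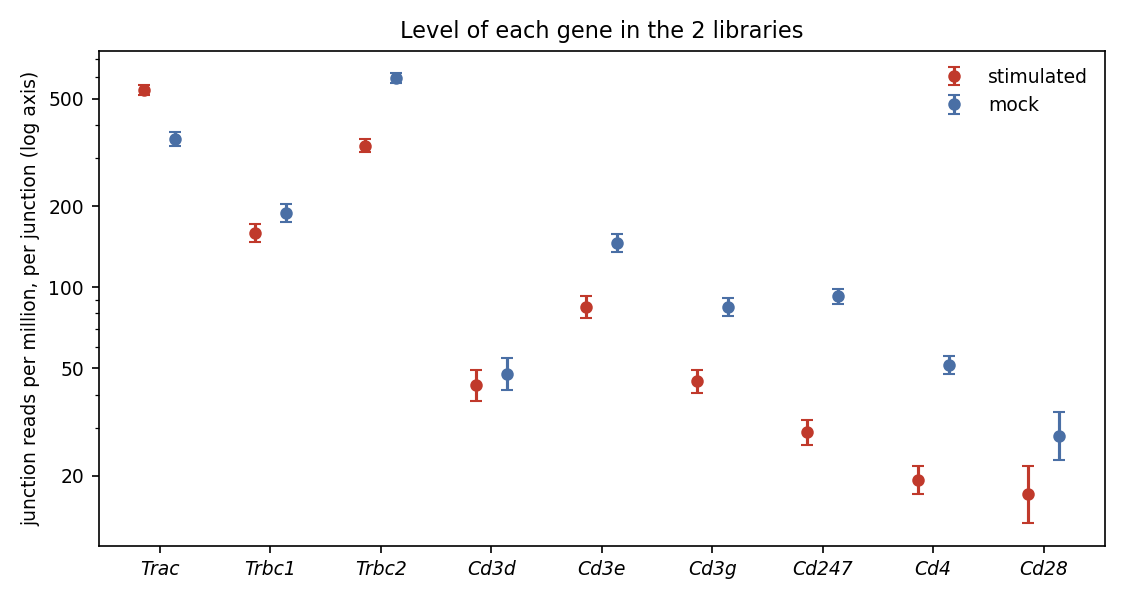
Reads per 1000000 junction reads, per named junction, for each gene in the stimulated and mock libraries (log axis, bars are exact Poisson 95% intervals). Trac is above Trbc2 in the stimulated library (540 and 335) and below it in the mock library (354 and 595), and Cd28 is lowest in both.

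**Figure D5:**
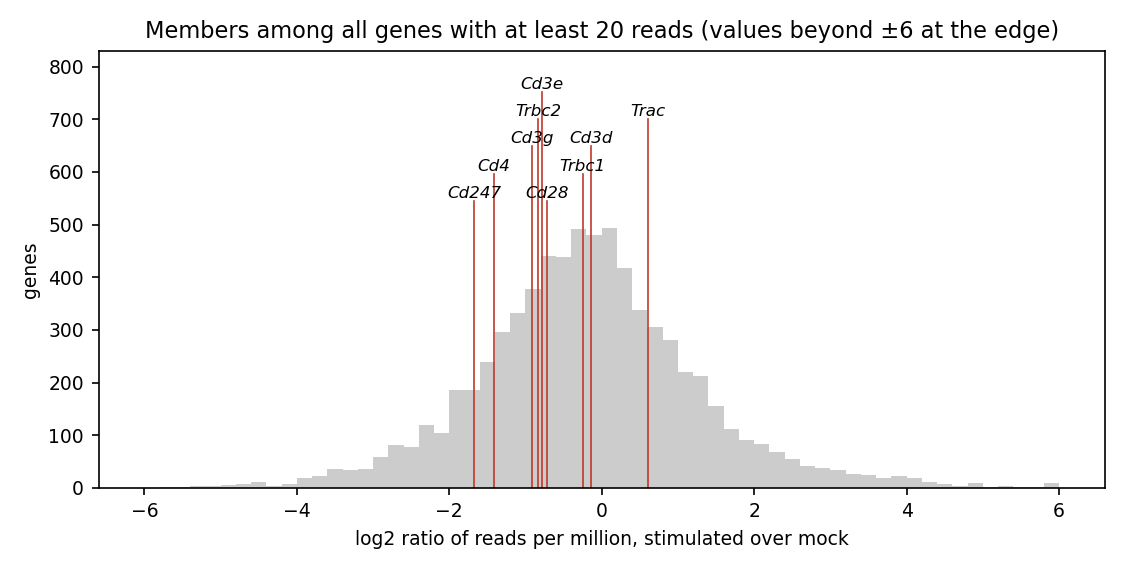
Number of genes by log2 ratio, stimulated over mock, for the 7200 genes with at least 20 reads (grey), with each member marked by a line. Cd247, at −1.67, is the lowest of the members and lies at percentile 12.9, and Trac, at 0.61, at percentile 74.4.

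The genes that act next to the receptor had members called in both directions. Of 33 listed genes of proximal signalling 32 were measured: 8 were higher (17.1% of all measured genes) and 11 lower (25.1%). With the trimmed-mean scaling 8 were higher and 8 lower. The shares of all measured genes were not computed with that scaling. Their log2 ratios had a median of −0.17. Ubash3b, a phosphatase that restrains receptor signals, had the highest ratio, 8.22 (6.60 to 10.4), with 846 stimulated and 88 mock reads. Themis, which tunes the strength of receptor signals, was the lowest, 27.7-fold lower with 3 stimulated and 71 mock reads (9.09 to 137). Ptprc, the phosphatase CD45, had the most reads, 11473 and 6960 (1.41), and was not called. Of the kinases that act first, Zap70, which binds phosphorylated CD3 and ζ tails, was 4.21-fold higher (3.73 to 4.77), and Lck, carried by CD4, stood at 1.31 (1.21 to 1.41). Zap70 and Lck were picked for their link to the chains after values were seen.

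Other surface proteins of T cells, relatives of CD28 and CD4 among them, had a median log2 ratio of 0.58. Of 17 listed genes 15 were measured, with 5 higher (17.1% of all measured genes) and 4 lower (25.1%). With each gene's most-read junction left out, 3 were higher and 2 lower. With the trimmed-mean scaling 7 were higher and 3 lower, again without a share of all measured genes to set beside them. Lag3, a relative of CD4 that also binds class II molecules, had the highest ratio, with 21 stimulated and 2 mock reads (8.98, 2.20 to 79.0). Cd7 had the lowest, 11 and 71 reads (0.133, 0.0633 to 0.252), and Cd53 the most reads, 2954 and 1685 (log2 ratio 0.58). In the CD28 family Icos, Pdcd1 and Btla were higher, at 2.67-fold, 2.75-fold and 5.31-fold, while Ctla4, at 0.736, and Cd28 itself were not called. These family members were named after their values were seen.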

How the data were processed

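RNA sequencing of 1 stimulated and 1 mock library, each from CD4+ T cells of 4 pooled spleens, was used. The deposited values are counts of reads that span each splice junction, taken from the score column of junction lists that TopHat made, per the file headers. The submitters' processing notes also name Cufflinks and the build mm9. Versions, settings, filters and the handling of reads with several matches: not given in the sources used here. Any aligner that misses short exons or places reads on a near copy changes these counts. GENCODE M21 is on GRCm38, so genes were named by structure: chromosome, strand, intron length and exact spacing to another junction of a transcript. Of 124183 junctions 77.0% were named and 187 fitted several genes equally. With chromosomes exchanged, at most 8 were named. Only constant-region introns were used for Trac, Trbc1 and Trbc2.

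Ratios were computed from reads per 1000000 junction reads (rpm), with exact 95% intervals (scipy 1.17.1); where a library had 0 reads, 3 were used. The floor of 3 reads is 2.24 rpm in the stimulated library and 2.61 in the mock library. Naming and calling were tested on simulated data. Alternatives used scaling by the trimmed mean of M values (edgeR 4.0.16) and the median of ratios (DESeq2 1.42.0), other choices of junctions and other thresholds. Intervals cover counting error only, since reads are not independent molecules. The members and lists were chosen with earlier results of these data known. Named were all 9 members, the genes with the highest ratio, the lowest ratio and the most reads of each list, and others said to be chosen after values were seen.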

Additional observations from a re-analysis of the deposited data

Results flagged for a closer look

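Junctions inside the 9 genes that the naming by intron length and spacing gave to no gene held 48 stimulated and 65 mock reads on 42 junctions in all. Of these, 3 had more than 3 reads in a library, which is above the limit that a count of 0 allows. In Cd3e the acceptor 3 bases into exon 2 (intron of 119 bp, mm9 chromosome 9, 44817530 to 44817648) had 12 stimulated and 24 mock reads. In Trbc2 a junction of 339 bp from the end of exon 1 (mm9 chromosome 6, 41497104 to 41497442) had 6 and 3 reads. On the minus strand, opposite to Cd247, a junction of 1179 bp, the length of the zeta intron 7, had 2 and 5 reads (mm9 chromosome 1, 167789947 to 167791125). None of the 3 entered the value of a gene.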

How the results depend on the processing

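Over 8 other settings per gene, 72 values in all, 17 equalled the reported value, 9 of them by construction because only the interval was widened. Of the 55 that differed from it, 2 changed sign and 1 crossed the 2-fold limit. Cd3d changed sign under the trimmed mean of M values (0.10) and the median of ratios (0.083), which shift every log2 ratio by 0.24 and 0.23. Trbc2 became 2-fold lower without its most-read junction (−1.06). Members called lower were 6 at a fold of 1.5 and 0 at a fold of 4, and 1 was called higher at 1.5. All measured genes called lower and higher were 633 and 482 at a fold of 4, in place of 1805 and 1230. Without each gene's most-read junction the surface list had 2 lower and 3 higher. With the trimmed mean of M values or the median of ratios it had 3 lower and 7 higher. The proximal signalling list then had 8 lower and 8 higher. With the 9017-bp junction the Trac share was 51.7% for stimulated and 29.4% for mock cells. The rank by reads per junction stayed the same for 4 of 9 genes in the stimulated library with the most-read junction, and for 5 in the mock library with that or with the median. A floor of 1 read in place of 3 was not run, as no member had 0 reads in a library. No paired analysis was possible because each group has 1 library. Cd28, with 69 and 97 reads, is the gene whose depth limits most.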

Other observations

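In 5 of the 9 genes the longest intron had the highest ratio among junctions with at least 20 reads: Cd3d (3029 bp, 1.33), Cd3g (4995 bp, 1.22), Cd247 (66279 bp, 0.642), Cd28 (16450 bp, 0.690) and Trac (1324 bp, 1.93). The same was true of 19.6% of the 3324 genes with 3 or more such junctions. That share pools genes with any number of junctions from 3 up, while Cd28, Trac, Trbc1 and Trbc2 had 3 each, so the comparison is not matched. In all 5 genes the longest intron was also intron 1, so length cannot be told apart from position. In each of the 5 its interval overlapped that of at least 1 other intron, as in Cd247 (0.277 to 1.45) and Cd28 (0.391 to 1.21). In Cd4, Trbc1 and Trbc2 it was not so. Cd3e could not be judged, since its introns 2, 3 and 4 (2154, 1649 and 3158 bp) were not found as annotated in either library. Intron 5 (991 bp), the longest one found there, had the lowest ratio of that gene (0.373). The pattern was noticed in these values and was not tested.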
